A study of Mus musculus with 6 samples.

Results

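The endoplasmic reticulum (ER) chaperones and the XBP1 branch of the unfolded protein response are represented here by 10 genes: Hspa5, Hsp90b1, Calr, Sdf2l1, Dnajb9, Pdia4, Pdia6, Creld2, Herpud1 and Xbp1. They were chosen by name. Every probe set that the array annotation assigns to exactly 1 symbol, and to 1 of these, was taken, which gave 21 probe sets of 45101 on the array and 10 genes of 18193 with such a symbol. All 10 genes were bright enough to be tested. Macrophages were grown from the bone marrow of mice that lack vimentin and of littermates with an intact Vim gene (wild-type), and 3 arrays were run for each genotype. The mice were aged 17 weeks, had a C57BL/6 background and ate chow. Marrow was cultured at normal oxygen, with the supernatant of the CMG14-12 line as the source of macrophage colony-stimulating factor, and the labels name no agent that stresses the ER. The labels give neither the Vim allele nor the number of animals behind a culture.

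Secreted and membrane proteins fold in the ER with the help of chaperones, of enzymes that form disulfide bonds, and of a degradation route that removes what does not fold. When unfolded protein accumulates, sensors in the ER membrane respond. IRE1 (gene Ern1) removes a short intron from the Xbp1 mRNA, so that the active transcription factor XBP1 is made, and ATF6 is cleaved to release another factor. Both raise chaperone and degradation genes, while PERK (gene Eif2ak3) slows translation and raises ATF4. Lipid-laden macrophages of atherosclerotic plaques are known for an active ER stress response. The array measures the total transcript of each gene, so removal of the Xbp1 intron was not measured.

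XBP1 and ATF6 act through short promoter elements, and these are shown first because the expression values played no part in finding them. The ER stress element ERSE, which reads CCAAT, then 9 bases of any kind, then CCACG, was searched on both strands from 250 bases before to 50 bases after the transcription start (RefSeq, GRCm38.p6). Each of the 10 genes had 1 such window. ERSE was present in 5 of the 10 genes, Hspa5, Hsp90b1, Calr, Pdia6 and Creld2, and in 39 of all 32851 windows, or 0.119%. Of the related gene lists, ERSE was in 3 of 20 other ER chaperone and folding genes with a window (Dnajc3, Ero1b and Canx), in 2 of 15 degradation genes (Derl3 and Syvn1) and in 0 of 15 genes of the PERK and ATF4 branch. The related ERSE-II, which reads ATTGG, then 1 base of any kind, then CCACG, was present in Herpud1 and in 12 of all windows, or 0.0365%. The XBP1 element UPRE, which reads TGACG followed directly by TGG, was in 0 of the 10 windows and in 0.676% of all windows. ERSE was defined in the literature on promoters of this kind of gene, so its presence is a description and not separate evidence, and a missing match says only that these letters are not in the window. The 250 bases before the start of Hspa5 (chr2:34771840-34772089, plus strand) and Hsp90b1 (chr10:86705445-86705694, minus strand) are printed 5′ to 3′ on the strand of the gene, with the fixed letters of ERSE in capitals. Hsp90b1 has 2 matches, of which the one nearer the start is in reverse orientation.
Hspa5: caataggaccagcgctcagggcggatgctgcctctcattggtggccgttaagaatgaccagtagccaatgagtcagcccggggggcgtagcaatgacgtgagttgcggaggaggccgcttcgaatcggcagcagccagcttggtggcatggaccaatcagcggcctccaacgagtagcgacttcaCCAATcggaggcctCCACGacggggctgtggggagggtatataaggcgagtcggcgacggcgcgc
Hsp90b1: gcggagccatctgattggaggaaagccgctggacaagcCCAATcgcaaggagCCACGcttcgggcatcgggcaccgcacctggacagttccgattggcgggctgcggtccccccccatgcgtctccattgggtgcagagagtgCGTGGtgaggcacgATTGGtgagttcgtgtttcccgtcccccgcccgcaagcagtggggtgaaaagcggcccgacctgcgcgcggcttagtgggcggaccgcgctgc

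The matching sites of the other genes are shown alone, also 5′ to 3′ on the strand of the gene and with the fixed letters in capitals. They are ERSE in forward orientation for Pdia6 (chr12:17266491-17266509, plus strand), ERSE in reverse orientation for Calr (chr8:84847075-84847093, minus strand) and Creld2 (chr15:88819520-88819538, plus strand), and ERSE-II for Herpud1 (chr8:94386377-94386387, plus strand). These sites lie between 162 and 42 bases before the start.
Pdia6: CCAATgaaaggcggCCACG
Calr: CGTGGtcgaccctcATTGG
Creld2: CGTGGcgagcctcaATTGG
Herpud1: ATTGGgCCACG

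All values are log2 probe set values, on which a difference of 1 is a doubling. The arrays matched their genotype labels, since the brightest Vim probe set had a mean of 7.43 (SD 0.67) without vimentin and of 13.32 (SD 0.089) with it, over 3 arrays each. It read 8.20, 6.96 and 7.13 on vimentin-deficient replicates 1, 2 and 3, and replicate 1 was the highest of these in every Vim probe set. Vimentin-deficient replicate 3 stood apart. It correlated with the other 5 arrays at 0.975 to 0.979 across probe sets, against 0.992 to 0.998 among those 5, so results are given with and without it. All 8 macrophage markers were tested, and the brightest were Lyz2 (means 14.04 vimentin-deficient and 14.09 wild-type) and Cd68 (13.62 and 13.73). The 3' minus 5' difference of the control probe sets ran from -0.017 to 0.013 for Gapdh and from 0.18 to 0.23 for Actb. The labels call the samples biological replicates without naming animals, so p-values measure only the spread between these samples. In bulk RNA, fewer cells of a type and less RNA per cell cannot be told apart.

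None of the 10 genes passed the test between genotypes. With all 6 arrays 0 of 10 had a limma adjusted p below 0.05 (Benjamini-Hochberg over 13445 genes), where 0.0223% of all tested genes did, and their adjusted p lay between 0.556 and 0.994. At an unadjusted limma p below 0.05 there was 1 of 10, Xbp1, with the higher mean in vimentin-deficient cells. Over all tested genes 7.97% were below that p, and 3.01% were below it with a higher mean. Means were higher in vimentin-deficient macrophages for 7 of the 10 genes and lower for 3, with 39.6% higher over all tested genes. The median log2 fold change of the 10 was 0.058, beside -0.023 over all tested genes. The 95% intervals of single genes lay within -0.47 and 0.53, which is 1.39-fold lower and 1.45-fold higher.

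Xbp1, which encodes the transcription factor of the IRE1 branch, was the single gene of the 10 whose groups did not overlap. It read 11.94, 11.72 and 12.06 on vimentin-deficient replicates 1, 2 and 3 and 11.70, 11.58 and 11.57 on the wild-type replicates. The lowest vimentin-deficient value lay just above the highest wild-type value, by less than the SD of either genotype. The log2 fold change was 0.29 (SE 0.10, 95% interval 0.048 to 0.53, limma adjusted p = 0.556), or 1.22-fold. This 1 of 10 genes compares with 5.32% of all tested genes that had non-overlapping groups with vimentin-deficient arrays higher.

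Xbp1 has 4 probe sets, and in 3 of them the groups did not overlap. Probe set 1420886_a_at read 11.90, 11.55 and 11.99 against 11.51, 11.42 and 11.37 in wild-type. Probe set 1420011_s_at read 11.27, 10.96 and 11.31 against 10.84, 10.86 and 10.82. In both, vimentin-deficient replicates 1 and 3 stood well above the wild-type arrays and replicate 2 lay closer to them. Probe set 1420012_at was the dimmest and had another order. It read 9.41, 9.78 and 9.39 against 9.26, 9.43 and 9.21, with vimentin-deficient replicate 2 highest and wild-type replicate 2 above the others. The log2 fold changes of the 4 lay between 0.23 and 0.38. They measure the same RNA samples, so they are not separate tests.

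**Figure D1:**
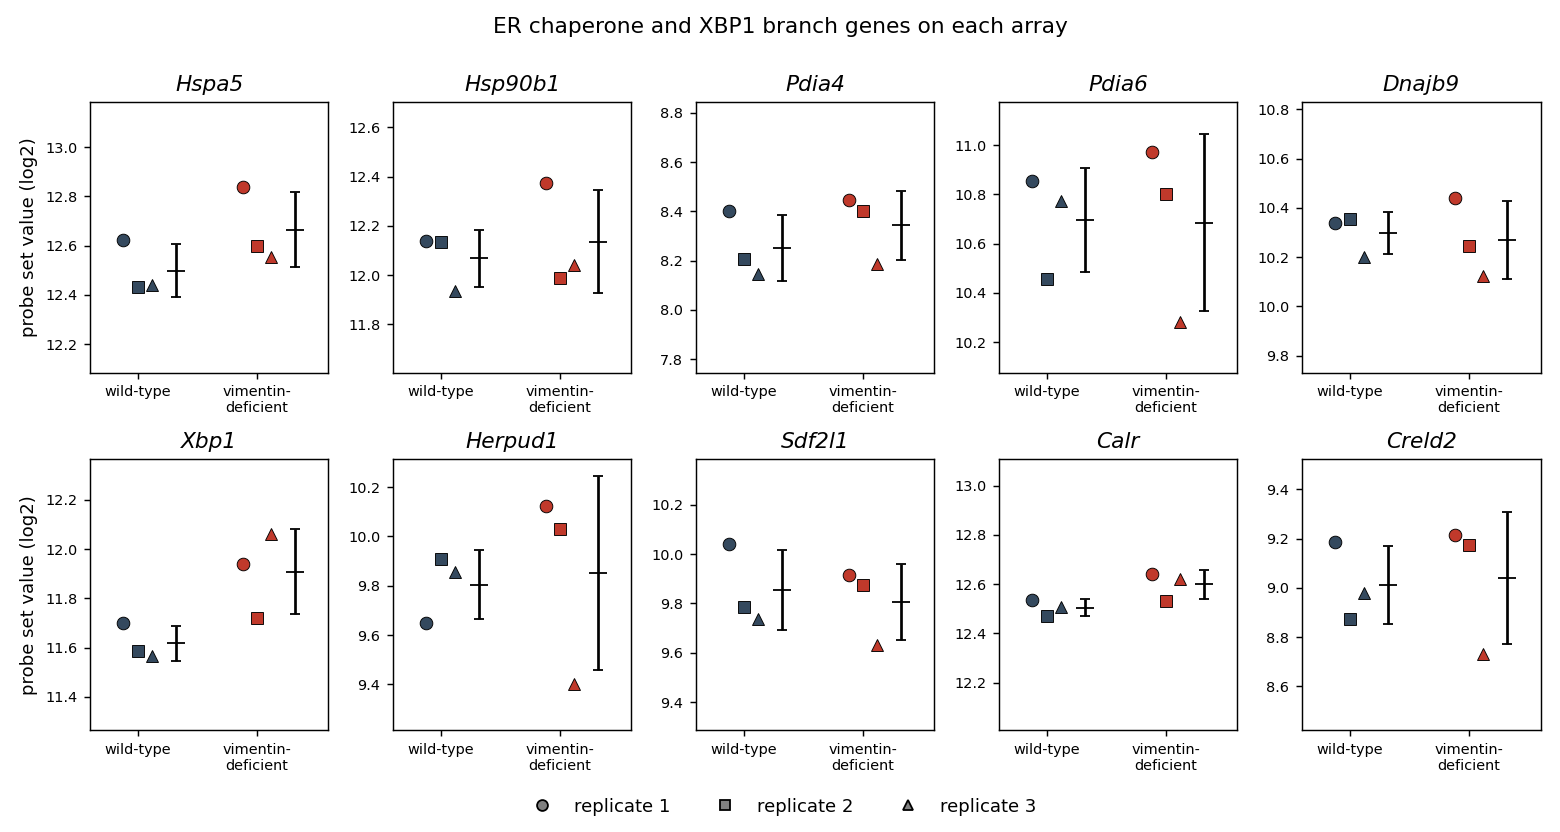
Log2 probe set value (vertical axis, each panel spanning the same height) of the brightest probe set of each of the 10 genes on each array, by genotype. Circles, squares and triangles are replicates 1, 2 and 3, and bars give the mean and SD of 3 arrays. Xbp1 is the one panel in which all vimentin-deficient points (11.72 to 12.06) lie above all wild-type points (11.57 to 11.70), and the vimentin-deficient triangles of Herpud1 and Pdia6 lie far below the circles and squares.

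Among the chaperones, Hspa5 encodes BiP, the ER Hsp70 that binds unfolded chains and holds the sensors inactive. It read 12.84, 12.60 and 12.55 on vimentin-deficient replicates 1 to 3 and 12.62, 12.43 and 12.44 on the wild-type arrays. Replicate 1 was above every wild-type array, and the other vimentin-deficient arrays lay just below wild-type replicate 1. The log2 fold change was 0.17 (95% interval -0.066 to 0.40, limma adjusted p = 0.714). Its probe set 1427464_s_at read 11.99, 11.64 and 11.72 against 11.64, 11.58 and 11.47, without overlap by the barest margin, and its dimmest, 1447824_x_at, had a log2 fold change of 0.042.

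Hsp90b1 encodes GRP94, the ER member of the Hsp90 family, whose clients include integrins and Toll-like receptors. It read 12.38, 11.99 and 12.04 against 12.14, 12.13 and 11.93 in wild-type. Vimentin-deficient replicate 1 was high, and the other values were mixed between genotypes. The log2 fold change was 0.067 (95% interval -0.22 to 0.35, limma adjusted p = 0.912).

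Calr encodes calreticulin, the lectin chaperone that retains glycoproteins until they fold and that binds calcium. It was the steadiest of the 10 genes, with an SD of 0.058 in vimentin-deficient and 0.033 in wild-type macrophages. It read 12.64, 12.53 and 12.62 against 12.54, 12.47 and 12.51, so that vimentin-deficient replicate 2 and wild-type replicate 1 alone kept the groups from separating. The log2 fold change was 0.095 (95% interval -0.048 to 0.24, limma adjusted p = 0.734). The remaining probe sets of Calr had 0.086 and 0.12, each without overlap by a margin under the SD of its groups.

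Sdf2l1 and Dnajb9 encode partners of BiP. Sdf2l1, part of a BiP-containing chaperone complex, read 9.92, 9.87 and 9.63 against 10.04, 9.78 and 9.74. Its highest value was that of wild-type replicate 1 and its lowest that of vimentin-deficient replicate 3 (log2 fold change -0.048, 95% interval -0.33 to 0.24). Dnajb9, the J-domain protein ERdj4 and a target of XBP1, read 10.44, 10.25 and 10.12 against 10.34, 10.36 and 10.20. Its vimentin-deficient values spread beyond the wild-type values on both sides (log2 fold change -0.029, 95% interval -0.28 to 0.22).

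Pdia4 and Pdia6 encode disulfide isomerases, and Creld2 an ER stress-inducible protein of related activity. Pdia4 read 8.44, 8.40 and 8.18 against 8.40, 8.20 and 8.15, with wild-type replicate 1 level with the upper vimentin-deficient arrays (log2 fold change 0.092, 95% interval -0.14 to 0.33). Pdia6 read 10.97, 10.80 and 10.28 against 10.86, 10.46 and 10.77 and had a log2 fold change of -0.0093 (95% interval -0.47 to 0.46). Creld2 read 9.21, 9.17 and 8.73 against 9.19, 8.87 and 8.98 and had 0.027 (95% interval -0.33 to 0.38). For Pdia6 and Creld2, vimentin-deficient replicate 3 was the lowest of all 6 arrays and replicate 1 the highest.

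Herpud1 encodes an ER membrane protein that organises the ligase complex of ER-associated degradation. It read 10.13, 10.03 and 9.40 on vimentin-deficient replicates 1 to 3 and 9.65, 9.91 and 9.86 on the wild-type arrays. Its vimentin-deficient arrays had the widest spread of the 10 genes (SD 0.39), with replicates 1 and 2 above and replicate 3 below every wild-type array. The second probe set had the same order, at 9.63, 9.49 and 9.02 against 9.21, 9.43 and 9.34. The log2 fold change was 0.048 (95% interval -0.42 to 0.51, limma adjusted p = 0.966).

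Over all 21 probe sets 0 had a limma adjusted p below 0.05 with 6 arrays, where 0.0143% of 34945 single-symbol probe sets did, and 0 without vimentin-deficient replicate 3, where 1.36% did. An unadjusted limma p below 0.05 was found for 3, all of Xbp1, against 6.92% of all. Means were higher in vimentin-deficient macrophages for 17 and lower for 4 probe sets. Genes with several probe sets weigh more in this count, and the share with higher means was not computed over all probe sets. Groups that did not overlap, with vimentin-deficient arrays higher, were found for 6 (Xbp1, Calr and Hspa5), against 5.26% of all. With 6 arrays no gene had probe sets of opposite sign. Without replicate 3 the dim probe set of Pdia6 had -0.064 and the bright one 0.19.

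**Figure D2:**
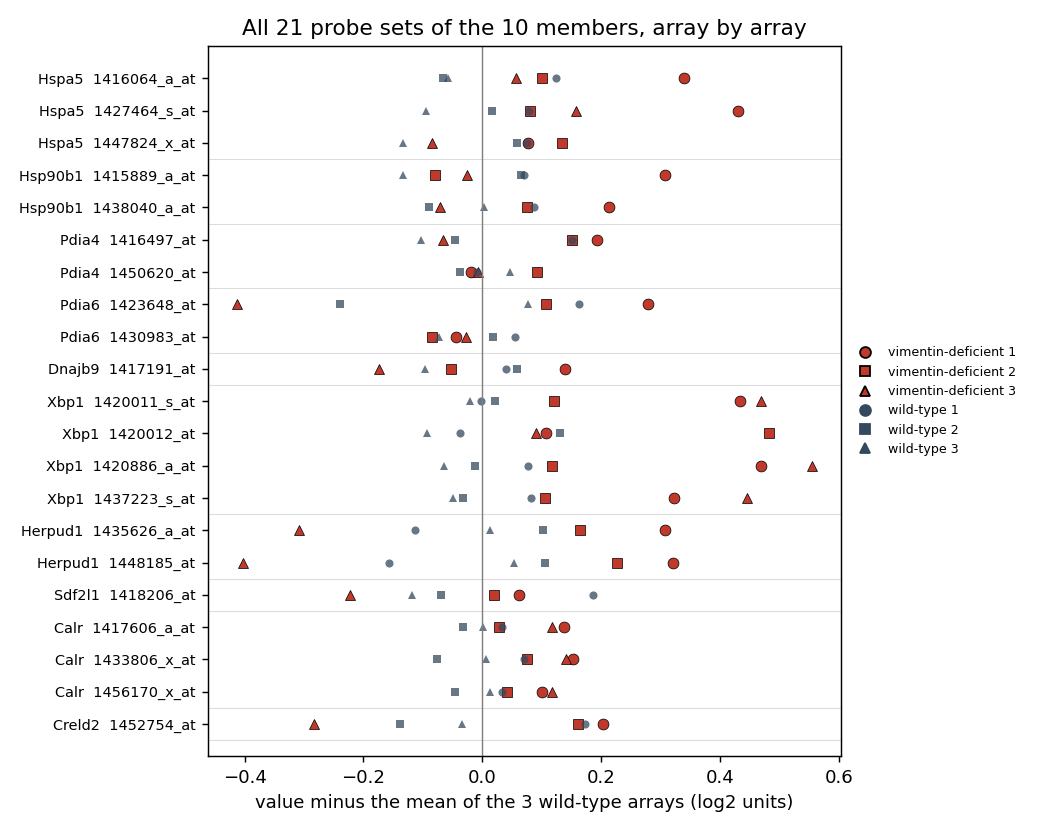
Each of the 21 probe sets of the 10 genes (rows, gene symbol and array identifier) with its value on every array minus the mean of the 3 wild-type arrays, in log2 units. Large red symbols are vimentin-deficient and small dark symbols wild-type arrays. All vimentin-deficient symbols of the Xbp1 rows lie to the right of 0, and the Herpud1 rows have replicate 3 at -0.40 and -0.31 with replicates 1 and 2 to the right of 0.

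The 10 genes varied between arrays of 1 genotype as well as between genotypes. Relative to each gene's wild-type mean, their mean was 0.23, 0.077 and -0.10 log2 units on vimentin-deficient replicates 1, 2 and 3, and 0.086, -0.040 and -0.046 on the wild-type replicates. On vimentin-deficient replicate 1, 9 of the 10 were above every wild-type array, as were 28.2% of all tested genes. Replicate 3 of that genotype was below every wild-type array for 5, Pdia6, Dnajb9, Herpud1, Sdf2l1 and Creld2, as it was for 45.7% of all tested genes. The same array was above every wild-type array for 2, Xbp1 and Calr, as it was for 26.4% of all tested genes. Wild-type replicate 1 was the highest of its group for 8 of the 10 genes, the exceptions being Herpud1 and Dnajb9.

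Proliferation markers also varied between arrays. The summed linear signal of the 7 tested of 8 markers, of which Cdk1 and Pclaf were brightest, was 10970, 9324 and 1477 on vimentin-deficient replicates 1 to 3, and ranged from 5668 to 9438 over the wild-type arrays. It was highest on the array where 9 of the 10 genes were high and lowest on replicate 3. Its part in the spread of the chaperone genes was not tested.

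Without vimentin-deficient replicate 3 all 10 means were higher in vimentin-deficient macrophages, beside 44.5% of all tested genes. Again 0 of 10 passed (limma adjusted p from 0.212 to 0.922), where 2.34% of all tested genes did. At an unadjusted limma p below 0.05 there were 3 of 10, Herpud1, Hspa5 and Xbp1, all higher, against 14.2% of all tested genes, or 7.11% with a higher mean. The median log2 fold change was 0.18, beside -0.013 over all tested genes. Groups did not overlap, with vimentin-deficient arrays higher, for 3 of 10, Pdia4, Xbp1 and Herpud1, against 11.9% of all tested genes. The direction depended on the array left out. Without vimentin-deficient replicate 1 instead, the median of the 10 was -0.057. Hsp90b1 (-0.052), Herpud1 (-0.088) and Creld2 (-0.061) then had lower means, as did Pdia6, Dnajb9 and Sdf2l1. Hspa5, Pdia4, Xbp1 and Calr kept higher means.

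Between the fits with and without vimentin-deficient replicate 3, Herpud1 moved most, from 0.048 to 0.27 (95% interval 0.059 to 0.49, limma adjusted p = 0.212). Hspa5 had 0.22 (95% interval 0.026 to 0.41) without the array, Pdia6 0.19, Creld2 0.18 and Pdia4 0.17. Pdia6 changed sign, as did Dnajb9 and Sdf2l1, to 0.043 and 0.040. Xbp1 went the other way, to 0.21 (95% interval 0.023 to 0.40), as replicate 3 carried its highest value. Calr also went down slightly, from 0.095 to 0.083.

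**Figure D3:**
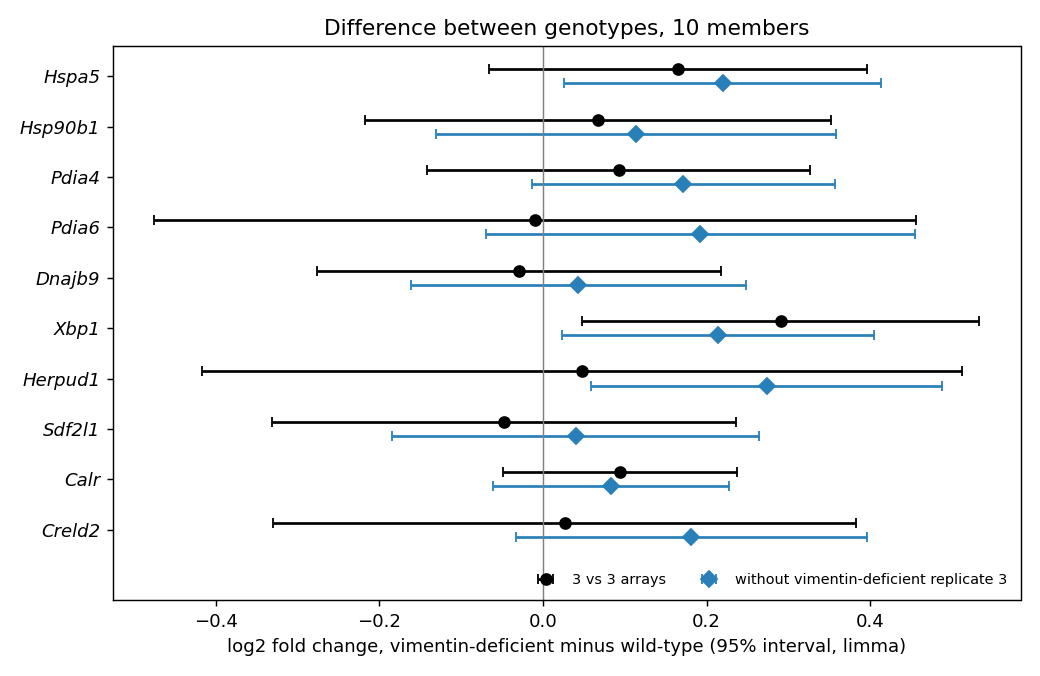
Log2 fold change of each of the 10 genes, vimentin-deficient minus wild-type (horizontal axis), with its 95% interval from limma, for all 6 arrays (black circles) and without vimentin-deficient replicate 3 (blue diamonds). With 6 arrays the Xbp1 interval, 0.048 to 0.53, is the one that lies above 0, and without that array those of Hspa5, Xbp1 and Herpud1 do, although none passed adjustment over all genes.

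The 6 genes with an ERSE or ERSE-II match had log2 fold changes from -0.0093 to 0.17 with 6 arrays (median 0.058), and the 4 without one from -0.048 to 0.29 (median 0.032). The ranges overlapped. Without vimentin-deficient replicate 3 the medians were 0.19 and 0.11. The difference was not tested.

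The genes that sense ER stress did not pass. Of 6 tested sensor and processing genes 0 had a limma adjusted p below 0.05, and their median log2 fold change was 0.025, or -0.067 without vimentin-deficient replicate 3. Mbtps1, the protease that starts ATF6 cleavage, had -0.15 (SE 0.095, limma adjusted p = 0.723). Eif2ak3, which encodes PERK, had 0.061, and Mbtps2, which completes the cleavage, had -0.068.

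Of 24 other ER chaperone and folding genes 0 passed, 14 had higher means and the median log2 fold change was 0.061. Hyou1, an ER chaperone that acts as an exchange factor of BiP, read 9.96, 10.03 and 9.90 against 9.82, 9.69 and 9.47, without overlap (log2 fold change 0.30, SE 0.11, limma adjusted p = 0.563). Ero1b, an oxidase that recharges the isomerases, had 0.18 (SE 0.064), also without overlap. In the other direction, Sil1, another exchange factor of BiP, read 8.57, 8.50 and 8.39 against 8.61, 8.75 and 8.80 and had -0.24 (SE 0.080, limma adjusted p = 0.536). Without vimentin-deficient replicate 3 again 0 of 24 passed, with 19 higher and a median of 0.12.

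Genes of protein entry and of degradation did not pass either, with or without that array. Of 16 tested translocation and signal peptidase genes 12 had higher means (median log2 fold change 0.059). Ssr4, a subunit of the translocon-associated complex, had 0.17 (SE 0.072), Spcs1 of the signal peptidase -0.11, and Ssr1 0.26 (SE 0.20). Without vimentin-deficient replicate 3 Ssr1 had 0.48 (SE 0.11, limma adjusted p = 0.0504), just short of the threshold. Of 17 tested degradation genes 8 had higher means (median -0.0031). Ube2j2, a ubiquitin-conjugating enzyme of this route, had 0.23 (SE 0.076), Selenos, a selenoprotein of the retrotranslocation complex, 0.22 (SE 0.076), and the lectin gene Erlec1 -0.18 (SE 0.086).

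In the PERK and ATF4 branch 0 of 15 tested genes passed with 6 arrays, 13 had higher means and the median log2 fold change was 0.25. Nupr1, a stress-inducible chromatin protein, read 8.78, 8.55 and 8.32 against 7.63, 7.46 and 7.65 (log2 fold change 0.97, SE 0.12, limma adjusted p = 0.138). Ddit3, which encodes CHOP, read 10.09, 10.12 and 10.07 against 8.99, 9.44 and 9.38 (0.82, SE 0.13, limma adjusted p = 0.17). For both, every vimentin-deficient array was above every wild-type array, replicate 3 included, as it was for Cebpb (0.44, SE 0.14).

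Without vimentin-deficient replicate 3, 6 genes of this branch rose and 1 fell (limma adjusted p below 0.05), where 1.31% of all tested genes rose and 1.03% fell. Asns, the asparagine synthetase gene, rose by 1.29 on the log2 scale, Nupr1 by 1.09, the pseudokinase gene Trib3 by 1.06, the glutathione-degrading Chac1 by 0.84, Ddit3 by 0.83 and Atf4 by 0.70, while Atf3 had -0.36. With all 6 arrays, where none of these passed, the log2 fold change was 0.51 for Asns, 0.63 for Trib3, 0.45 for Chac1, 0.46 for Atf4 and -0.086 for Atf3. On the array left out, Asns, Trib3 and Chac1 were below every wild-type array, at 7.82, 7.39 and 7.02, and Atf3 was above every wild-type array, at 11.98. Without that array the dimmest Atf4 probe set had -0.075 and the second Ddit3 probe set 0.14. In the same fit the 10 chaperone and XBP1 branch genes had values between 0.040 and 0.27. Eif2ak3, which encodes PERK, had 0.069 in that fit, and the array does not measure PERK activity. Whether PERK had a part in these values, and whether the branches differ, was not tested.

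**Figure D4:**
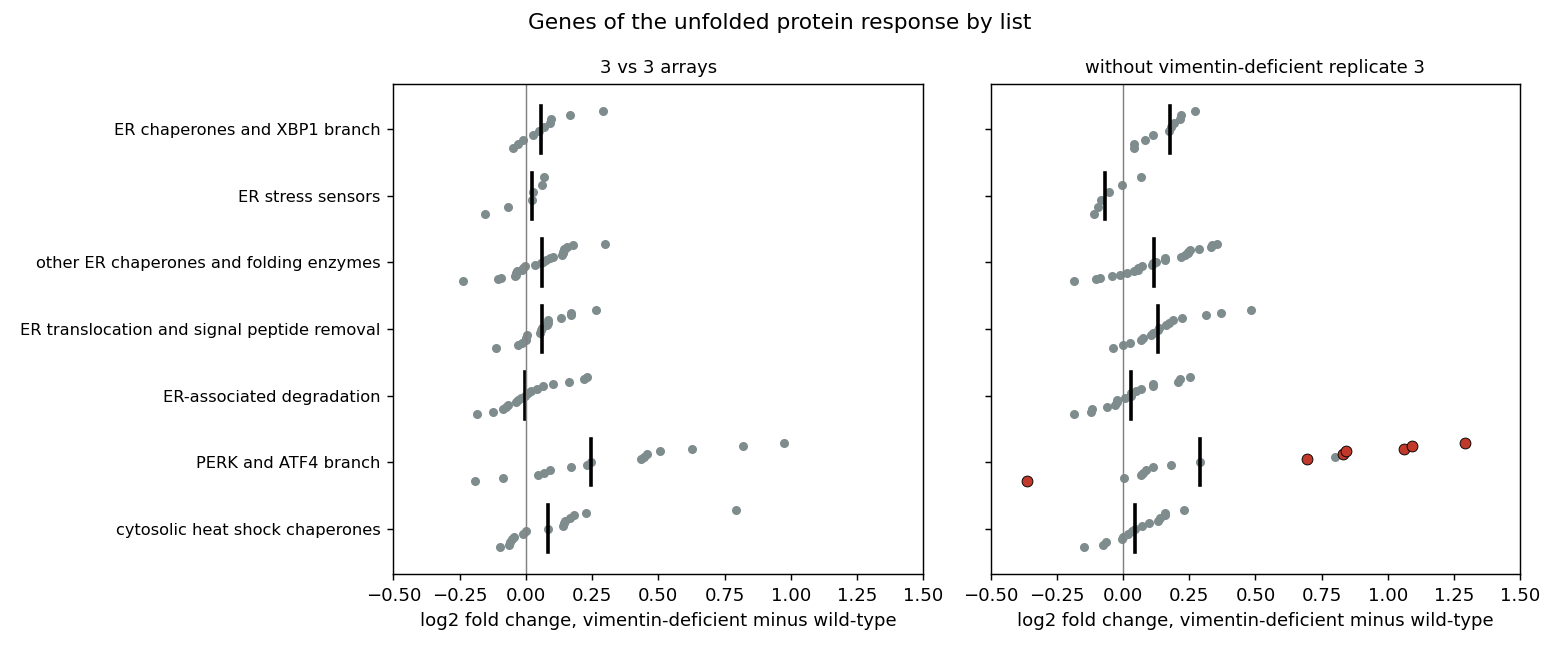
Log2 fold change, vimentin-deficient minus wild-type, of every tested gene (points) in each list, with all 6 arrays on the left and without vimentin-deficient replicate 3 on the right. Black bars are list medians and red points passed limma at an adjusted p below 0.05. There are no red points on the left, and on the right all are in the PERK and ATF4 branch, 6 above and 1 below 0.

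Plasma cells and B cells, of which plasma cells have an expanded ER and high XBP1, were represented by 11 genes. Of these 7, among them Cd79a and Jchain, were below the tested level or without a probe set of their own. Mzb1 had means of 7.47 in vimentin-deficient and 7.48 in wild-type cells, and Sdc1, which macrophages also express, 8.21 and 8.35. The summed linear signal of the 4 tested genes ranged from 605 to 1184 over the vimentin-deficient and from 713 to 862 over the wild-type arrays. It was highest on vimentin-deficient replicate 3, where Xbp1 was also highest. On that array Sdc1 read 9.48, against 8.06 to 8.52 on the wild-type arrays. Mzb1 (7.40) was below every wild-type array there. Neither Pax5 (7.14) nor Prdm1 (7.31) was above its highest wild-type value (7.20 and 7.48). The part of this signal in the Xbp1 value was not tested. Without that array Sdc1 (-0.77) and Prdm1 (-0.57) fell, while with all 6 arrays they had -0.13 and -0.38 and did not pass.

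The summed signal of neutrophil markers (4 of 8 tested, brightest Elane and Mpo) and dendritic cell markers (3 of 6, Xcr1 and Flt3) overlapped between genotypes. So did that of stromal markers (4 of 7, Col1a1 and Col3a1) and T cell markers (3 of 6, Cd3e and Cd4). The rest were below the tested level or without a probe set of their own. Means of the tested neutrophil, dendritic cell and stromal markers lay between 7.03 and 8.01. The filter was at 6.93, so these sums hold background and say little about cell content. The summed signal of the 3 tested erythroid markers (brightest Epor and Hba-a1) ranged from 586 to 623 over the vimentin-deficient and from 668 to 692 over the wild-type arrays. Epor had -0.32 without vimentin-deficient replicate 3 (limma adjusted p = 0.0389) and -0.25 with that array, where it did not pass. The summed signal of osteoclast markers (brightest Ctsk and Acp5) reached 1022 on vimentin-deficient replicate 3, against at most 658 on the wild-type arrays. On replicate 3 Ctsk read 9.01, against 7.37 to 7.72 in wild-type. Acp5 read 7.94 (wild-type 7.54 to 7.77), Dcstamp 7.07 (6.96 to 6.98) and Oscar 6.99 (6.99 to 7.03). Of the macrophage markers, Cd14 rose by 0.59 without replicate 3 and had 0.75 with it (limma adjusted p = 0.249). The other macrophage markers did not pass in either fit and went both ways. Without replicate 3, Mertk had -0.46, Adgre1 -0.25, Lyz2 -0.15, Csf1r -0.14 and Cd68 -0.11, while Itgam had 0.20 and Fcgr1 0.15. The part of these cells in the values of the 10 genes was not tested.

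The genes whose pattern over the 6 arrays was most like the mean of the 10 were Ttc27, Samsn1, Syne1, Tmx1 and Sun1. Likeness was measured as the root mean square difference between centred log2 values, which was 0.021 for Ttc27 and Samsn1, 0.026 for Syne1 and 0.028 for Tmx1 and Sun1. Each of the 10 genes was farther from their own mean than these, from 0.049 for Pdia4 to 0.189 for Herpud1 and 0.196 for Xbp1. The genes named first were picked as the nearest of all tested genes outside the 10. Their smaller distance was therefore largely set by that choice. Among the 10, Pdia4 followed the mean most closely, and Xbp1 and Herpud1 least.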

How the data were processed

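The authors deposited 1 table of log2 probe set values for 6 Affymetrix mouse arrays. The log2 scale was read from the values (5.43 to 14.50, array medians 7.23 to 7.25), and the sources used here do not say how probes were summarised and normalized. They were used as deposited. Signal of dim genes includes background, which can compress their fold changes.

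Of 45101 probe sets, 64 were controls, 34945 had 1 symbol and 932 several. Symbols were updated by Entrez ID (34741 matched). Each of 18193 genes was represented by its probe set of highest mean, and the 13445 at or above the 40th percentile (6.93) entered limma 3.58.1 (R 4.3.3; lmFit, then eBayes with trend), with genotype as the single term. Benjamini-Hochberg adjustment covered every tested gene, and calls needed an adjusted p below 0.05. Intervals use the moderated variance and are not adjusted. The fit was also run on simulated data in which no array stood apart. That run does not cover the effect of vimentin-deficient replicate 3.

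The genes and lists were chosen with earlier results of these data known, so no list was tested as a set. By rule the text names the 10 genes, Vim, from each other list the 3 genes of smallest p and those past the threshold with or without vimentin-deficient replicate 3, the 2 brightest and any called marker of each cell type, and the 5 genes most like the 10. Cd79a and Jchain, and the genes of the related lists with an ERSE match, were named after their values were seen. So were Pax5, Dcstamp, Oscar and the macrophage markers other than Lyz2, Cd68 and Cd14. Alternatives covered normalization, filter, probe set rule, variance trend, array weights, a replicate block, the threshold and each array left out.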

Additional observations from a re-analysis of the deposited data

How the results depend on the processing

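Of the 10 genes 0 passed limma under each alternative that was run: quantile normalization, median centring, no filter, a 60th percentile filter, the mean of all probe sets, no variance trend, array quality weights, a replicate block, an adjusted p below 0.1 and each array left out. Their median log2 fold change was -0.057 to 0.18 with 1 array left out. The lower value came without vimentin-deficient replicate 1 and the upper without vimentin-deficient replicate 3. Over all genes 3 were called with 6 arrays, 93 with array quality weights and 0 to 315 with 1 array left out, the most without vimentin-deficient replicate 3 and 1 without replicate 2, and 0, 0 and 0 without wild-type replicates 1, 2 and 3. In the PERK and ATF4 branch 2 were called with array quality weights and 0 to 7 with 1 array left out. With the weights Pdia6 had 0.14, Dnajb9 0.065 and Sdf2l1 0.050, and with the mean of all probe sets Erlec1 had 0.013, each of opposite sign to the reported value. With 1 array left out the log2 fold change ran from -0.052 to 0.14 for Hsp90b1, -0.15 to 0.19 for Pdia6, -0.11 to 0.043 for Dnajb9, -0.088 to 0.27 for Herpud1, -0.11 to 0.046 for Sdf2l1, -0.061 to 0.18 for Creld2, -0.36 to 0.073 for Atf3, -0.11 to 0.0070 for Mbtps2 and -0.77 to 0.19 for Sdc1, so these changed sign; the cause was not tested. For Xbp1 it ran from 0.21 to 0.38. The genotypes share replicate numbers, and the main fit did not use them as pairs. Deviations of same-numbered arrays from their group means correlated at 0.50, -0.19 and 0.055 across genes. With 3 arrays per group and 1 array standing apart, these correlations cannot show whether the numbers pair the samples. With the replicate block 0 genes were called, and Vim had -5.89 with a limma adjusted p of 0.062.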

Other observations

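Cytosolic heat shock genes serve folding outside the ER. Of 15 tested, 0 passed with 6 arrays (limma adjusted p below 0.05), 0 had an unadjusted p below 0.05 and 9 had higher means, with a median log2 fold change of 0.085. Hspa1b, an inducible Hsp70 gene, read 7.23, 7.08 and 9.32 on vimentin-deficient replicates 1, 2 and 3 and 7.03, 7.11 and 7.11 on the wild-type arrays. Its log2 fold change was 0.79 (SE 0.55) with 6 arrays and 0.073 without replicate 3. Dnaja1, an Hsp70 partner, had 0.14, and Hspa4, an Hsp70 exchange factor, 0.17. Hspa5, the ER Hsp70 gene, was not high on replicate 3, where it read 12.55, the lowest of the vimentin-deficient arrays.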
